A study of Mus musculus with 20 samples.

Results

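The 105 protein-coding genes of oxidative phosphorylation were examined in 20 mouse RNA-seq libraries. They were chosen by symbol from the 22109 protein-coding genes among 43432 annotated genes: those starting with Nduf, Cox4 to Cox8, Uqcr or Atp5, the genes Sdha to Sdhd, and the mitochondrial Nd, Co, Cytb and Atp genes. Of these, 92 are nuclear and 13 lie on the mitochondrial genome. Complex I had 45 members, its Ndufaf assembly factors 7, complex II 4, complex III 9, complex IV 21 and complex V 19. Members were placed by symbol, so Ndufa4 and Ndufa4l2 were counted under complex I and Atp5sl under complex V. For testing, 102 members passed a filter on low counts, among 15779 genes in all. Cox7b2, Cox8b and Cox8c had 0 counts in all 20 libraries and were not tested, and 3 matching pseudogenes were left out.

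Oxidative phosphorylation makes ATP in the inner membrane of mitochondria. Complex I takes electrons from NADH and complex II, succinate dehydrogenase, takes them from succinate. Ubiquinone carries them to complex III, cytochrome c carries them to complex IV, where oxygen is reduced, and complex V uses the resulting proton gradient to make ATP. Complexes I, III, IV and V are built from subunits of both genomes, while complex II is wholly nuclear. Mitochondrial mRNAs are cut from long transcripts of the mitochondrial genome, and nuclear mRNAs are spliced, exported and translated in the cytosol.

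All cells came from the Nude Mouse strain. The growth notes give DMEM with 10% fetal bovine serum for each group but ih_BCTC, which they do not list. The labels name 5 transformed lines with 3 libraries each, most of them tied to SU3, known as a human glioma stem cell line. C12 is labelled as SU3+ peritoneal washing cells and as macrophages transformed in co-culture. The label of ih_CTC is a transformed macrophage from a peritoneal xenograft, and that of ih_DCTC is transformed dendritic cells from a co-culture with SU3+ dendritic cells of bone marrow. The ih_BCTC line is labelled as transformed oligodendrocytes recultured from a SU3 brain tumour, and ih_STC_BM as transformed mesenchymal stem cells cultured from a tumour of a mouse with damaged and reconstructed bone marrow. The precursor groups are MDSC, myeloid-derived immunosuppressive cells (3 libraries), and MSC, mesenchymal stem cells of normal mouse bone marrow (2 libraries). Monoclonal culture is mentioned for the lines and both precursor groups, so a line may be 1 clone. Nothing in the labels says that libraries of a group came from separate animals or cultures, so the tests speak only to the spread among these libraries, which may be technical.

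Total counts ran from 8794777 to 12400640 per library. The share of reads in introns, from the authors' alignment table, was 10.4%, 10.3% and 9.64% in the MDSC libraries and 2.07% and 3.09% in the MSC libraries. The 15 line libraries ran from 1.02% to 8.52%. A pair of libraries stood apart from their labels. The library labelled ih_DCTC 2 was nearer to each ih_BCTC library (0.459 to 0.545, root mean square difference in log2 level) than to the other ih_DCTC libraries (0.873 and 1.10). The library labelled ih_STC_BM 2 was nearest to C12 3, and 1.29 and 1.57 from the other ih_STC_BM libraries. Markers went against several labels. The summed level of 6 leukocyte markers was 1.35 to 20.5 CPM in the lines (counts scaled to a common library size), against 4834 to 4885 in MDSC, and that of 6 mesenchymal markers was 2543 to 10080 in the lines. In ih_BCTC 8 oligodendrocyte markers summed to 9.16 to 11.1 CPM, 5 of 8 having counts and Olig2 none, against 142 to 164 CPM in MDSC. Macrophage markers (5) summed to 46.3 to 88.2 CPM in C12, 96.4 to 109 in ih_CTC and 49.6 to 191 in ih_DCTC, each with 3 of 5 above 1 CPM in mean, against 1913 to 1921 in MDSC. Dendritic cell markers (6) summed to 4.21 to 9.46 CPM in ih_DCTC and 2277 to 2332 in MDSC. A list of 7 granulocyte and myeloid suppressor markers went with the MDSC label, with sums of 35870 to 38360 CPM there. Neither MSC library exceeded 142.5 CPM for this list, and no line library exceeded 11.9 CPM. The MSC libraries held the 5 macrophage markers at 2822 and 3614 CPM in sum beside 6 leukocyte markers at 1886 and 2836, and MDSC held 4 erythroid markers at 11090 to 11390. The part of these cells in the results below was not tested. In bulk RNA, fewer cells of a type and less RNA per cell cannot be told apart.

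Most nuclear members shared a pattern across libraries that is described below, so the bases before the start are shown for 1 gene per complex, followed by 2 genes without that pattern. Promoter windows (RefSeq, GRCm38.p6) were at hand for 73 of the 92 nuclear members. Among those with a window and a mean of at least 20 CPM, the genes shown have the steepest fall with the intron share in complexes I to V and the 2 least slopes, and the first 250 bases, up to the start, are printed. Capitals mark matches to any of 5 short motifs: GCATGCGC (NRF1), CCGGAAG (ETS factors and GABP), AAGGTCA (ERR), AAGATGGC (YY1) and CCAAT, each on either strand.
Ndufb8, chr19:44555443-44555692, minus strand: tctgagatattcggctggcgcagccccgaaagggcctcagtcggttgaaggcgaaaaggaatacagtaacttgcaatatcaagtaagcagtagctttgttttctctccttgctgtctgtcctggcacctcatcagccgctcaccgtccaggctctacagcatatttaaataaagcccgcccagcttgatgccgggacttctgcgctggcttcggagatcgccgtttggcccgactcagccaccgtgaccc
Sdhb, chr4:140961021-140961270, plus strand: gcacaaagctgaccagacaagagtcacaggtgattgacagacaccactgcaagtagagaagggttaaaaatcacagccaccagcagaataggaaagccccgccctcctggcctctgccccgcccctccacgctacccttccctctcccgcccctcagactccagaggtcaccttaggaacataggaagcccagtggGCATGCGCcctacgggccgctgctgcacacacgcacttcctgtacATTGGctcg
Uqcr11, chr10:80406822-80407071, minus strand: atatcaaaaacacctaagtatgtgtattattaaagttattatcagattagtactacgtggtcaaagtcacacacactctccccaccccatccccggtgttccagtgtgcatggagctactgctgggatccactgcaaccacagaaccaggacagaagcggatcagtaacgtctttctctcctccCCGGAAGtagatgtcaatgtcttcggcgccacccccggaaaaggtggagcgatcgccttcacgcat
Cox5b, chr1:36691237-36691486, plus strand: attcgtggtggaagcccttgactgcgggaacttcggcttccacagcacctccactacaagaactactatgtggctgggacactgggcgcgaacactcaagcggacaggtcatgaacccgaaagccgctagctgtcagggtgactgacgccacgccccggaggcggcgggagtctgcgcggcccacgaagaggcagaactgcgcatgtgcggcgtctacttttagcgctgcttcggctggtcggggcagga
Atp5g1, chr11:96075632-96075881, minus strand: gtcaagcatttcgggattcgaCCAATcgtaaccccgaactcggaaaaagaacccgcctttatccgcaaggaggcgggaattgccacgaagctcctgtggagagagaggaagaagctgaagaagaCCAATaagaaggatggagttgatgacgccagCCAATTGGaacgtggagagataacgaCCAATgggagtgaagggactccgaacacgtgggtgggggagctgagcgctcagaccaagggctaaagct
Ndufa6, chr15:82354292-82354541, minus strand: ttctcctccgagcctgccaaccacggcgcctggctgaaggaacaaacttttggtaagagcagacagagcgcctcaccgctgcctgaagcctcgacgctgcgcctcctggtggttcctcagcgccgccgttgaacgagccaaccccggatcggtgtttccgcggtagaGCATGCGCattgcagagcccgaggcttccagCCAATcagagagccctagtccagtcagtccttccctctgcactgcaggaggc
Cox7b, chrX:106015450-106015699, plus strand: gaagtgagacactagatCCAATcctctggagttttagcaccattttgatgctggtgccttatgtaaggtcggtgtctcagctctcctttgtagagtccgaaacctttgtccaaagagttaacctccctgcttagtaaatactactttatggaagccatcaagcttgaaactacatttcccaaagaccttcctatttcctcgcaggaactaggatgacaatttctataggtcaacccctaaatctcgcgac

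Over the whole 300-base windows, the NRF1 letters were in 15.4% of the 78 windows of members (some genes have several) and in 2.71% of all 32851 windows. The ETS letters were in 21.8% and 8.86%, the YY1 letters in 11.5% and 2.75%, the ERR letters in 10.3% and 4.72%, and CCAAT in 42.3% and 37.4%. Among the printed stretches, Atp5g1 held CCAAT 5 times, Sdhb and Ndufa6 each held the NRF1 letters and a CCAAT match, and none of the motifs was in the Ndufb8 or Cox5b stretch. A match of letters is a description and not a binding site.

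In levels per kilobase of exon, every mitochondrial member stood above 100 CPM per kb in each group, with a median of 941.3 (ih_CTC) to 1343 (ih_BCTC). The length used was that of all annotated exons of a gene merged, from GENCODE M21, which can exceed the length of its mRNA. The nuclear median was 22.1 CPM per kb in MDSC, 33.5 in ih_CTC, 35.4 in ih_BCTC, 42.2 in ih_DCTC, 47.2 in MSC, 58.6 in C12 and 66.3 in ih_STC_BM. The highest member per kb was mt-Co1, the largest core subunit of complex IV, in every group, from 3899 (ih_CTC) to 7196 CPM per kb (MDSC). Among nuclear members Cox8a, a small complex IV subunit, was highest in all groups except MDSC, where Atp5a1, the alpha subunit of the ATP synthase head, was (195.1 CPM per kb).

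Summed over the 92 nuclear members, the level was 5730, 5810 and 6003 CPM in the MDSC libraries and 11159 and 9551 in MSC. The C12 libraries were at 13118, 19915 and 7297 CPM, ih_CTC at 10516, 9490 and 8649, and ih_DCTC at 15635, 9756 and 7516. In ih_BCTC they were at 10166, 9393 and 7982, and in ih_STC_BM at 16107, 8364 and 21706. Every line library was above every MDSC library, while each of the 5 lines overlapped MSC. The spread within C12, ih_DCTC and ih_STC_BM was wide, with a mean of 13443 ± 6315 (SD, n = 3) CPM in C12 against 5848 ± 140.5 (SD, n = 3) in MDSC.

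The 13 mitochondrial members summed to 22834, 24053 and 24126 CPM in MDSC and 15369 and 18622 in MSC. The lines ran from 10709 (C12 2) to 29368 CPM (ih_STC_BM 2), on both sides of MDSC and MSC. The ratio of the mitochondrial to the nuclear sum was 3.99 to 4.14 in MDSC, above all 15 line libraries (0.537 in ih_STC_BM 3 to 3.63 in C12 3) and both MSC libraries (1.38 and 1.95).

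**Figure D1:**
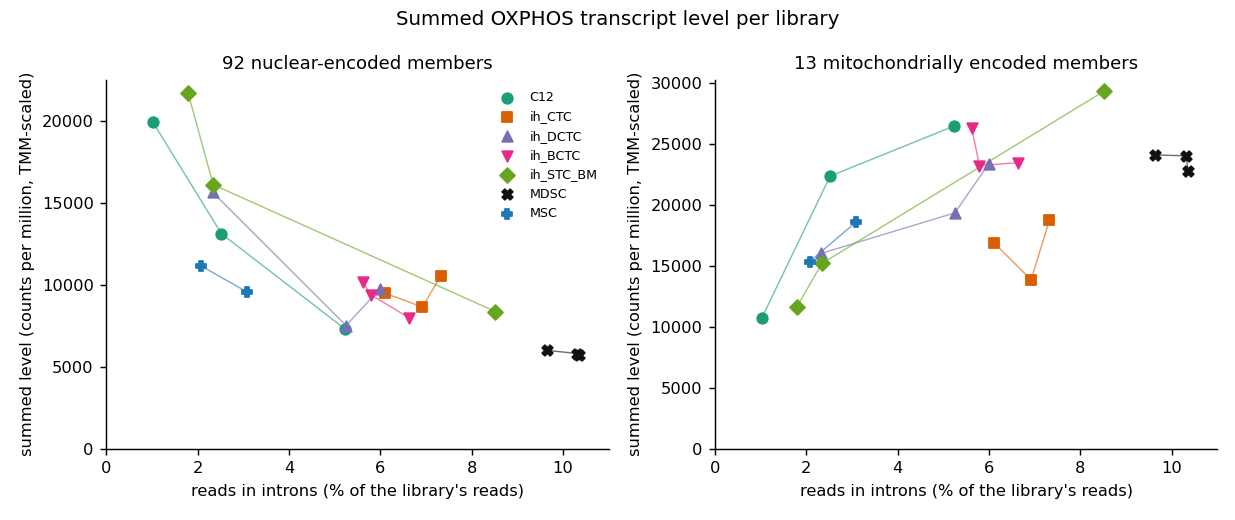
Summed level of the 92 nuclear (left) and 13 mitochondrially encoded (right) members in each of 20 libraries, in TMM-scaled CPM, against the share of reads in introns in percent; points are libraries, and lines join libraries of 1 group. The highest nuclear sums, 21706 and 19915 CPM, belong to libraries with an intron share of 1.79% and 1.02%, and MDSC sits lowest on the left.

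Against MDSC, nuclear members of every complex were higher in C12, ih_CTC and ih_DCTC, and no mitochondrial member was called. Atp5g1, which encodes the c-ring subunit of complex V, rose 6.49-fold in C12, 4.39-fold in ih_CTC and 5.27-fold in ih_DCTC. With the share of intron reads as a covariate its log2 change was -0.45 in C12 (adjusted p = 0.45), 0.79 in ih_CTC (0.043) and 0.09 in ih_DCTC (0.87, edgeR). Sdhc, a membrane anchor of complex II, rose 2.79-fold, 1.74-fold and 2.15-fold, and with the covariate it had 0.46, 0.36 and 0.35 on the log2 scale, none called. Atp5sl, which despite its symbol is known as a complex I assembly factor, was the 1 member lower in all 3 lines (2.06-fold, 2.78-fold and 2.11-fold). These 3 comparisons share the MDSC libraries.

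Called means an adjusted p under 0.05 in edgeR's quasi-likelihood test, Benjamini-Hochberg over the 15779 tested genes. In C12 65 of 102 members were higher and 1 was lower, beside 31.3% and 30.5% of all tested genes. In ih_CTC 31 were higher and 3 lower, beside 28.2% and 27.1%. In ih_DCTC 45 were higher and 2 lower, beside 31.2% and 28.1%. The median log2 change of the 89 tested nuclear members was 1.25, 0.69 and 0.97 in C12, ih_CTC and ih_DCTC, while that of all genes was 0.03, 0.08 and 0.09. For the 13 mitochondrial members it was -0.18, -0.26 and -0.16, and 0, 1 and 0 of them had an unadjusted p under 0.05. The other members lower were Cox6b2 in ih_CTC and ih_DCTC and Ndufaf3 in ih_CTC. RLE scaling gave 24 higher and 7 lower in ih_CTC. Upper quartile scaling moved the median of all genes to 0.30, 0.25 and 0.31.

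By complex, C12 had 30 of 45 complex I members higher, 5 of 7 assembly factors, 3 of 4 in complex II, 4 of 9 in complex III, 12 of 18 tested in complex IV and 11 of 19 in complex V. The counts were 12, 6, 1, 2, 5 and 5 in ih_CTC and 20, 5, 1, 3, 10 and 6 in ih_DCTC. The 24 members higher in all 3 lines included 5 of the 7 Ndufaf assembly factors (Ndufaf1, Ndufaf2, Ndufaf5, Ndufaf6 and Ndufaf7), all known to help assemble complex I. The share of all genes higher in all 3 lines is not given here, so these counts stand without a background.

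Atp5g1 (ENSMUSG00000006057, chromosome 11, 96068852 to 96075670 on the minus strand in the deposited annotation, whose build is not given) was at 23.5, 24.4 and 24.2 CPM in MDSC. It was at 140, 264 and 64.1 CPM in C12, at 117, 111 and 88.1 in ih_CTC, and at 191, 126 and 63.2 in ih_DCTC. All 9 of these line libraries were above all MDSC libraries. Of all tested genes, 35.3%, 41% and 35.3% were wholly above MDSC in C12, ih_CTC and ih_DCTC, and 37.7%, 39.4% and 36.2% wholly below. The log2 change of Atp5g1 was 2.70 ± 0.61 (SE, n = 3 and 3) in C12, adjusted p = 0.0011 (edgeR), 2.14 ± 0.60 in ih_CTC and 2.40 ± 0.61 in ih_DCTC. Its estimated counts were not whole in 14 of 20 libraries, so some of its reads were shared with other genes and the level is uncertain to that extent.

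Sdhc was at 40.3, 42.0 and 46.8 CPM in MDSC, at 132, 165 and 63.0 in C12, at 80.9, 70.9 and 72.5 in ih_CTC, and at 114, 90.3 and 73.2 in ih_DCTC. No line library overlapped MDSC. Ndufa7, an accessory subunit of complex I, had the largest rise in that complex among members with a mean of at least 20 CPM in either group compared, in C12 (19.6 ± 0.757 in MDSC, 136 ± 73.95 CPM in C12) and in ih_DCTC (108 ± 49.8 CPM; SD, n = 3 each). In ih_CTC that place went to Ndufa5, also an accessory subunit, at 33.99 ± 6.996 CPM against 10.6 ± 0.834 in MDSC, log2 change 1.69 ± 0.37 (SE), adjusted p = 8.4e-04 (edgeR). With the covariate Ndufa7 was at 0.73 in C12 (adjusted p = 0.072, not called) and 0.86 in ih_DCTC (0.015, edgeR). Ndufa5 was then at 1.09 in ih_CTC (adjusted p = 0.0038, edgeR).

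Among complex III members of at least 20 CPM the largest rise in each of the 3 lines was that of Uqcr11, a small subunit, with log2 changes of 2.47 ± 0.61, 1.55 ± 0.60 and 1.83 ± 0.60 (SE) and adjusted p of 0.0021, 0.035 and 0.014 (edgeR). With the covariate Uqcr11 was at -0.57, 0.30 and -0.39, none called. In complex IV, under the same limit, it was Cox6a1 in C12 (3.69-fold), Cox7b in ih_CTC (2.29-fold) and Cox4i1 in ih_DCTC (2.87-fold, adjusted p = 0.016, edgeR), all structural subunits around the catalytic core. With the covariate Cox6a1 was at 0.08 in C12 and Cox4i1 at -0.42 in ih_DCTC, neither called, and Cox7b at 1.10 in ih_CTC (adjusted p = 0.00016, edgeR). Among assembly factors of at least 20 CPM it was Ndufaf7 in C12 (2.52-fold), Ndufaf4 in ih_CTC (2.34-fold) and Ndufaf5 in ih_DCTC (4.84-fold).

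Atp5sl (ENSMUSG00000057229, chromosome 7, 25619414 to 25625551 on the plus strand) was at 36.3, 35.7 and 34.9 CPM in MDSC. The C12 libraries were at 14.1, 19.95 and 17.8 CPM, ih_CTC at 11.6, 10.9 and 15.9 and ih_DCTC at 26.5, 12.2 and 12.2, with no overlap. The log2 change was -1.05 ± 0.31, -1.48 ± 0.32 and -1.08 ± 0.31 (SE), adjusted p = 0.0078, 7e-04 and 0.0068 (edgeR).

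**Figure D2:**
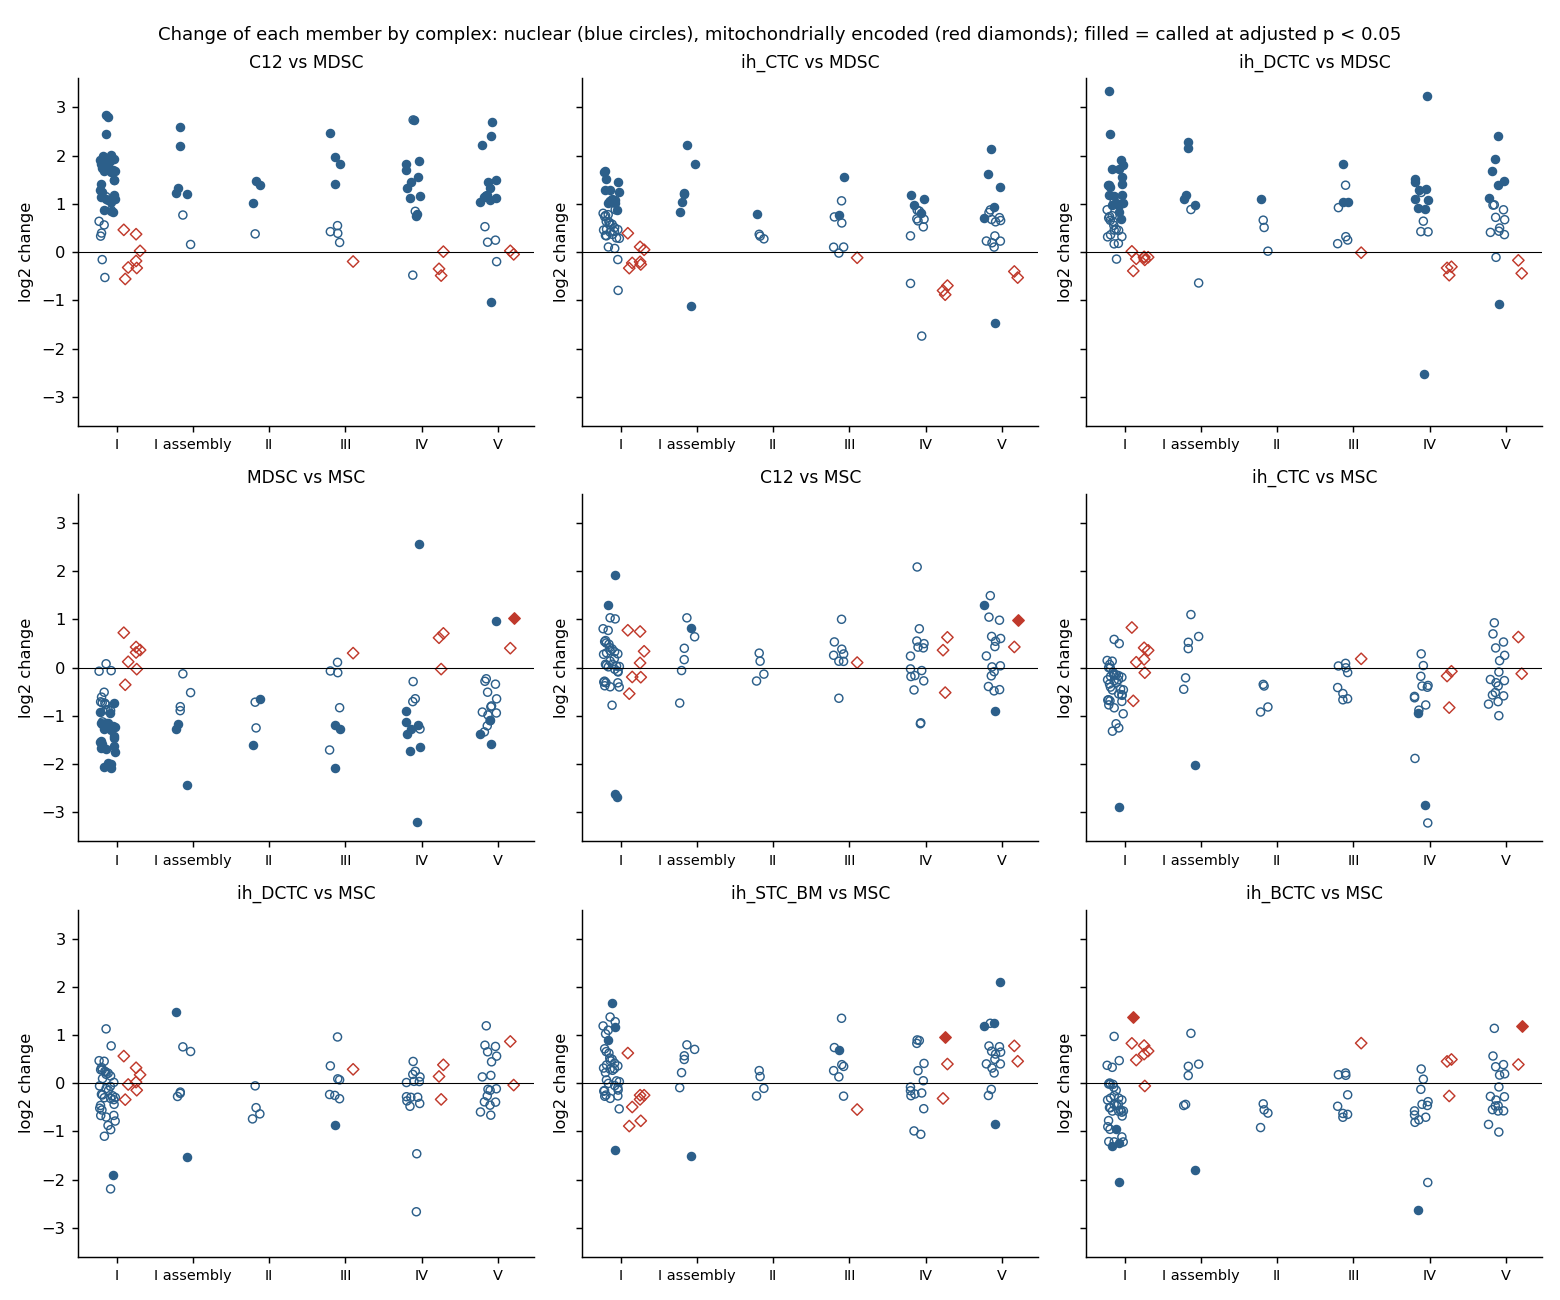
Log2 change of each tested member (points) by complex in 9 comparisons; blue circles are nuclear, red diamonds mitochondrially encoded, and filled points were called at an adjusted p under 0.05. Points beyond 3.6 in either direction, all of Cox4i2, Cox6a2, Cox6b2, Cox7a1 or Ndufa4l2, are off the axis; in the first 3 panels most blue points lie above 0, and no red one is filled.

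MDSC had the highest intron share of the series, and the nuclear members fell as that share rose within groups (below). With the intron share as a covariate, 9 members were higher and 13 lower in C12 against MDSC, beside 26.5% and 20.1% of all genes. In ih_CTC the counts were 18 and 11 (31.7% and 26.4% of all genes), and in ih_DCTC 13 and 15 (30.4% and 22.7%). The nuclear median became -0.18, -0.02 and -0.25, and the mitochondrial 1.05, 0.25 and 0.88, with 3, 0 and 3 mitochondrial members higher. No line library reached the intron share of MDSC, so this adjustment extends a slope measured at lower shares. Without the 5 line libraries under 3%, 42, 71 and 53 members were called, beside 59.2%, 69.4% and 68.1% of all genes, of which 40, 61 and 51 were higher; the nuclear median was then 0.50, 0.69 and 0.67. Without ih_DCTC 2, 50 members were called in ih_DCTC against MDSC, beside 57.4% of all genes, and without ih_DCTC 1 28 were, beside 54.1%.

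A few members, named after their values were seen, kept their call in both fits and in all 3 lines. Of 24 members higher in all 3 lines without the covariate and 4 with it, 3 were in both. The share of all genes that kept their call in the same way is not given here. Ndufaf1, Ndufaf7 and Ndufs4, an accessory subunit of complex I, were higher, and Atp5sl was lower. With the covariate, Ndufs4 had log2 changes of 0.72, 0.63 and 0.57 in C12, ih_CTC and ih_DCTC, Ndufaf7 of 0.92, 0.86 and 0.86, Ndufaf1 of 0.98, 0.72 and 0.91, and Atp5sl of -1.95, -1.90 and -1.85.

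Between the precursor groups, 45 of 89 tested nuclear members were lower in MDSC than in MSC, 2 were higher and 42 were not called. With the intron share as a covariate the balance turned, as given below. In all, 45 members were lower and 3 higher (Atp5sl, Cox6b2 and mt-Atp8), beside 25.6% and 20.4% of all genes, and the median was -1.12 over nuclear and 0.36 over mitochondrial members against -0.07 over all genes. Lower were 25 of 45 members in complex I, 3 of 7 assembly factors, 2 of 4 in complex II, 3 of 9 in complex III, 9 of 18 in complex IV and 3 of 19 in complex V. The largest falls per complex among members of at least 20 CPM were those of Ndufs5 (4.25-fold), Sdhc (3.06-fold), Uqcr11 (4.25-fold), Cox6b1 (3.32-fold) and Atp5k, a small membrane subunit of complex V (2.98-fold). With the covariate these were at -0.68, -0.61, 0.79, 0.20 and 0.72 on the log2 scale, none called.

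Cox6b1, a complex IV subunit that faces the intermembrane space, was at 69.5, 68.1 and 70.3 CPM in MDSC and at 246 and 214 in MSC, log2 change -1.73 ± 0.48 (SE, n = 3 and 2), adjusted p = 0.0073 (edgeR). Leaving out MSC 1 took the count of called members from 48 to 19, beside 30.1% of all genes. With the intron share as a covariate 18 members were higher and 7 lower, beside 15.7% and 26.1% of all genes, and the nuclear median was 0.38. Without the low-intron line libraries 80 were called, beside 64.1% of all genes, 75 of them lower.

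Against MSC, 4 to 13 of 102 members were called in each of the 5 lines without the intron share as a covariate. In that fit Ndufs5 alone was called in all 5, while the fit with the covariate, given below, had others. In C12 5 members were higher and 3 lower, beside 14.7% and 18.4% of all genes, and in ih_CTC 0 and 6, beside 14.7% and 19.9%. In ih_DCTC 1 was higher and 3 lower, beside 16% and 18.1%, in ih_STC_BM 8 and 5, beside 14.8% and 17.4%, and in ih_BCTC 2 and 9, beside 15.9% and 20.8%. Each line's total was below its background share. Of 102 members, 77 were called in none of the 5 lines, a count for which no share of all genes is given here. The nuclear median was 0.17, -0.38, -0.18, 0.30 and -0.46. The 5 comparisons share the same 2 MSC libraries, which also held the leukocyte and macrophage markers given above. With an unadjusted p under 0.05 there were 13, 16, 12, 23 and 20 of 102 members.

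Ndufs5 (ENSMUSG00000028648, chromosome 4, 123712710 to 123718202 on the minus strand), an accessory subunit of complex I on its intermembrane side, was at 83.5 and 64.5 CPM in MSC. The C12 libraries were at 10.4, 16.9 and 8.94 CPM, ih_CTC at 11.4, 9.22 and 9.42, ih_DCTC at 24.4, 17.8 and 17.0, ih_BCTC at 20.1, 18.2 and 15.3, and ih_STC_BM at 18.5, 15 and 51.2. All 15 line libraries were below both MSC libraries, and MDSC, at 17.1, 17.1 and 18.0 CPM, was too. The fall was by 2.62 ± 0.41 in C12, 2.88 ± 0.41 in ih_CTC, 1.91 ± 0.40 in ih_DCTC, 2.05 ± 0.40 in ih_BCTC and 1.39 ± 0.40 in ih_STC_BM on the log2 scale (SE), with adjusted p of 1e-04, 3.6e-05, 0.0014, 7e-04 and 0.013 (edgeR). Its estimated counts were not whole in 17 of 20 libraries, so reads were shared with other genes.

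**Figure D3:**
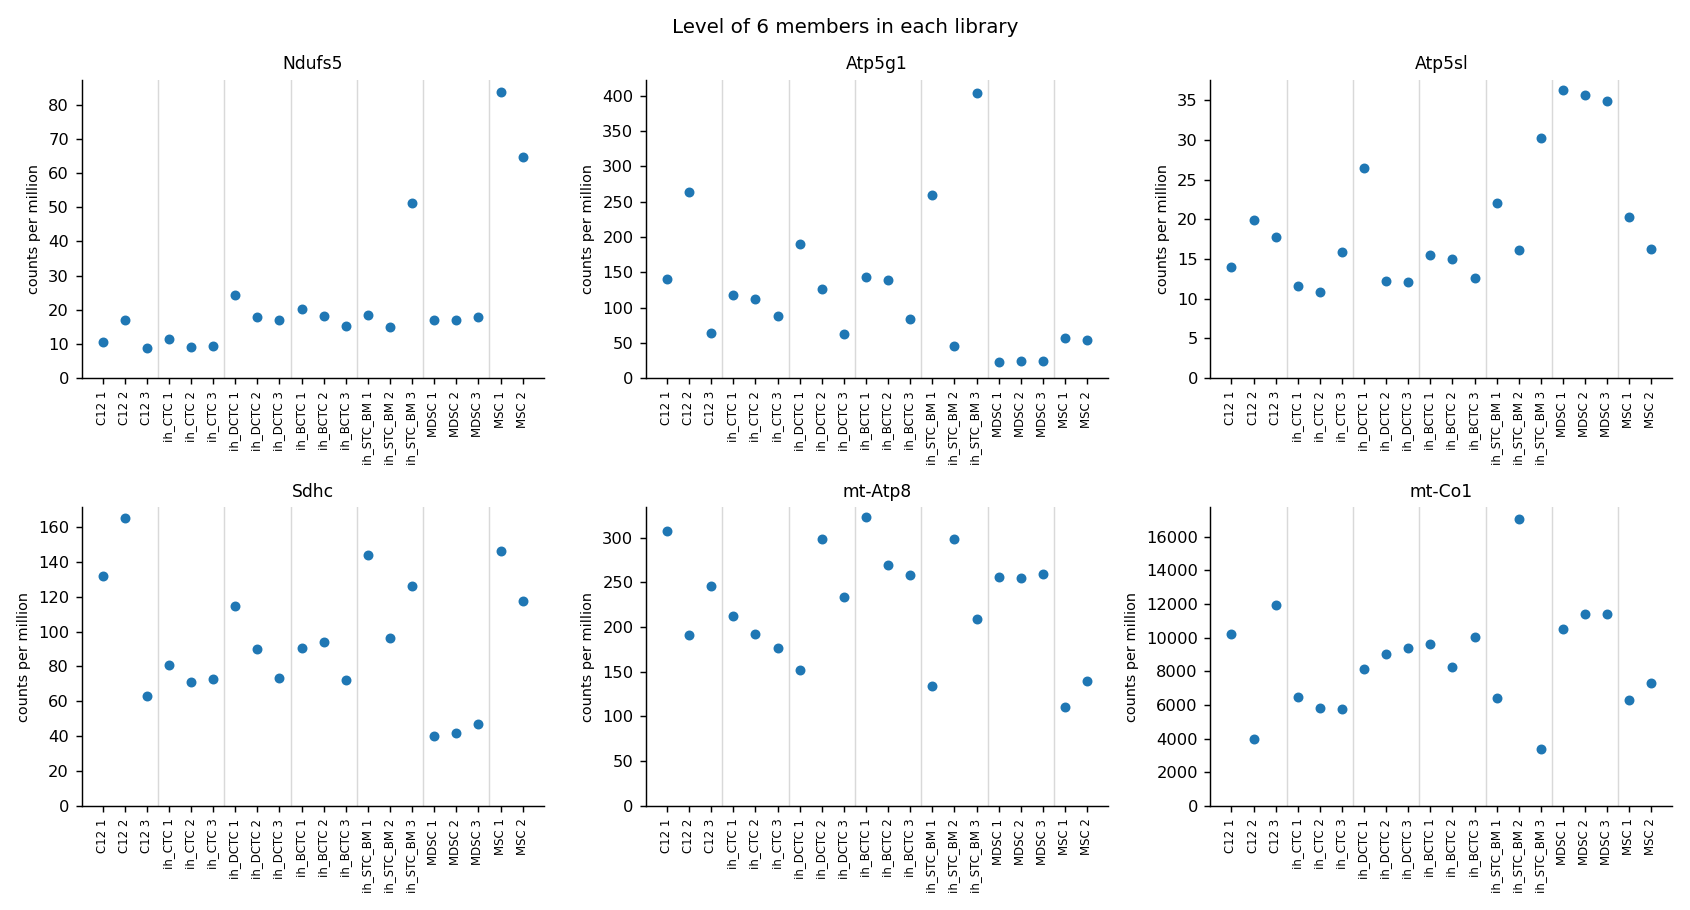
Level of 6 members in each of 20 libraries, in CPM on linear axes that start at 0, with grey lines between groups. Ndufs5 stands at 83.5 and 64.5 in MSC and at most 51.2 elsewhere; Atp5g1 and Sdhc are lowest, and Atp5sl highest, in MDSC.

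Ndufaf3, another complex I assembly factor, named after its values were seen, was at 18.3 and 12.1 CPM in MSC and at 3.26 to 6.29 in all 12 libraries of ih_CTC, ih_DCTC, ih_BCTC and ih_STC_BM. It was lower in these 4 lines (4.025-fold, 2.895-fold, 3.49-fold and 2.84-fold, adjusted p = 0.00034, 0.0031, 0.00079 and 0.0041, edgeR), and at 5.96 to 13.9 CPM in C12, where it was not called.

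Among the members higher than in MSC, Ndufv1, the NADH-binding core subunit of complex I, was at 74.5 and 73.0 CPM in MSC. It was at 260, 454 and 127 CPM in C12 and at 246, 104 and 347 in ih_STC_BM, log2 changes of 1.92 ± 0.52 and 1.66 ± 0.51 (SE), adjusted p = 0.0081 and 0.02 (edgeR). Atp5g1 was at 56.5 and 54.4 CPM in MSC and at 259, 45.2 and 404 in ih_STC_BM, where the groups overlapped (4.25-fold, adjusted p = 0.029, edgeR). Without the low-intron line libraries the sign of this Atp5g1 change turned, as given in the last section. Atp5g2, another gene of the c-ring subunit, rose 2.46-fold in C12. Atp5j, coupling factor 6 of the complex V stalk, was lower in C12 (1.85-fold) and ih_STC_BM (1.80-fold). Uqcrc2, a core protein of complex III, was 1.62-fold higher in ih_STC_BM, while Uqcrb, a small subunit of the same complex, was 1.82-fold lower in ih_DCTC. Ndufaf5 was 2.76-fold higher in ih_DCTC, and Ndufaf7 1.76-fold higher in C12. With the intron share as a covariate Uqcrb was at -0.63 on the log2 scale in ih_DCTC and not called (adjusted p = 0.063, edgeR). The other calls named in this paragraph were kept in that fit.

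These counts against MSC depended on the fit and the libraries used. With the intron share as a covariate 19 members were higher and 4 lower in C12, 23 and 9 in ih_CTC, 18 and 3 in ih_DCTC, 36 and 8 in ih_STC_BM and 17 and 6 in ih_BCTC. Called in either direction were 47.4%, 43%, 46.6%, 50.5% and 46.8% of all genes, and the nuclear median was 0.17, 0.46, 0.14, 0.53 and 0.23. Ndufs5 was lower in all 5 lines with the covariate too. Among the members then called higher in all 5 were Atp5g1 and Ndufv1. In the same order, Ndufv1 had log2 changes of 1.86, 1.63, 1.59, 1.94 and 1.88, with adjusted p of at most 0.00057 (edgeR). Without the low-intron line libraries 45, 44, 48, 43 and 52 members were called in C12, ih_CTC, ih_DCTC, ih_STC_BM and ih_BCTC, beside 40.7%, 54.8%, 51.3%, 44.6% and 56.4% of all genes, of which 40, 40, 44, 34 and 44 were lower. Upper quartile scaling gave 8 higher and 2 lower in C12 and 3 and 2 in ih_DCTC, and RLE scaling gave 4 and 5 in ih_STC_BM. Without ih_DCTC 2, 4 members were called in ih_DCTC, beside 30.9% of all genes. In the order C12, ih_CTC, ih_DCTC, ih_STC_BM and ih_BCTC, the counts without MSC 1 were 1, 4, 1, 2 and 4, beside 20.1%, 19.9%, 20.9%, 19% and 22% of all genes. Without MSC 2 they were 1, 5, 2, 4 and 6, beside 21.8%, 24.3%, 23.2%, 20.4% and 26.2%. Without ih_STC_BM 2 they were 14, 13, 10, 23 and 17, beside 38.6%, 39.6%, 39%, 39.1% and 42%. Leaving out a C12, ih_BCTC or MDSC library, ih_DCTC 1, ih_CTC 2 or ih_STC_BM 3 also moved some of the 5 counts by over 1.5 times, within 4 to 14, beside 27.2% to 36.9% of all genes.

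Among the 5 lines, 17 members differed by the test of equal means, beside 33.2% of all genes, and all 17 were nuclear. They were 9 of 45 members of complex I, 3 of 7 assembly factors, 3 of 18 in complex IV and 1 each in complexes III and V. The count was 17 without ih_DCTC 2 (35.9% of all genes), 47 without ih_STC_BM 2 (47.6%), 41 without C12 3 (41.1%) and 30 without ih_DCTC 1 (35.1%). It was 9 to 11, beside 25.3% to 29.2%, without any 1 of C12 1, the ih_CTC libraries, ih_BCTC 1, ih_BCTC 3 or MDSC 1. Cox7a2l, known for its part in respiratory supercomplexes, was at 305, 366 and 203 CPM in C12, 315, 126 and 238 in ih_DCTC and 277, 410 and 457 in ih_STC_BM. Its estimated counts were not whole in 17 of 20 libraries, so reads were shared with other genes. It was at 104, 92.7 and 127 CPM in ih_CTC and 115, 126 and 152 in ih_BCTC, adjusted p = 0.0014 (edgeR, n = 3 per line). The low values were those of ih_CTC, ih_BCTC and ih_DCTC 2.

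Ndufa6, an accessory subunit of complex I, was also low in ih_CTC (44.5, 34.2 and 43.2 CPM), ih_BCTC (42.8, 47.3 and 52.4) and ih_DCTC 2 (45.3). It was at 83.8, 118 and 83.3 CPM in C12, 92.1 and 82.4 in the other ih_DCTC libraries, and 86.2, 151 and 122 in ih_STC_BM, adjusted p = 0.0015 (edgeR, n = 3 per line). Ndufs1, an iron-sulphur core subunit of complex I, ran the other way: 124, 116 and 105 CPM in ih_CTC, 119, 109 and 90.6 in ih_BCTC and 109 in ih_DCTC 2, against 50.01 to 83.8 in the other line libraries (adjusted p = 0.034, edgeR, n = 3 per line). Ndufa8 was at 29.1 to 37.3 CPM in ih_BCTC and at 62.0, 33.4 and 29.9 in ih_DCTC, while C12, ih_CTC and ih_STC_BM ran from 50.3 to 135 CPM.

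Between ih_DCTC and ih_BCTC no member was called, nor was any of the tested genes (0%). With an unadjusted p under 0.05 there were 6 members. Leaving out ih_DCTC 2 gave 3 called members, beside 3.11% of all genes. The median log2 change was 0.28 over nuclear and -0.46 over mitochondrial members against 0.02 over all genes. Adjusted for the intron share, these medians were -0.06, -0.31 and 0.05.

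Within groups, 69 of 89 tested nuclear members fell and 8 of 13 mitochondrial members rose as the share of reads in introns rose. The slope is the log2 change per percentage point of intron reads in a model that holds the group means. Of the other nuclear members 2 had a positive slope and 18 were not called, and of the other mitochondrial members 1 had a negative slope and 4 were not called. For all 102, 70 negative and 10 positive stood beside 19.4% and 23.6% of all genes. The nuclear median was -0.20, the mitochondrial 0.18 and that of all genes 0.01 per percentage point.

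The called negative slopes were 33 of 45 members in complex I, 3 of 7 assembly factors, 3 of 4 in complex II, 6 of 9 in complex III, 10 of 18 in complex IV and 15 of 19 in complex V. Among the genes whose promoters are shown, the steepest slopes belonged to Atp5g1 (-0.41 ± 0.05, SE), Uqcr11 (-0.38 ± 0.06), Ndufb8 (-0.37 ± 0.05), Sdhb (-0.30 ± 0.04) and Cox5b (-0.27 ± 0.04), with adjusted p of 1.8e-05, 5.5e-05, 1.5e-05, 3.9e-05 and 2.4e-05 (edgeR). Ndufa6 (-0.00 ± 0.04) and Cox7b (-0.03 ± 0.03) had slopes near 0. The positive nuclear slopes were those of Ndufaf4 (0.21 ± 0.04) and Atp5s (0.24 ± 0.07), a coupling factor linked to complex V.

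Among mitochondrial members the called positive slopes were those of mt-Cytb (0.25), mt-Co2 (0.25), mt-Co1 (0.25), mt-Nd4 (0.23), mt-Nd4l (0.22), mt-Nd5 (0.19), mt-Nd6 (0.18) and mt-Atp8 (0.12). The gene mt-Nd3, also a complex I subunit, had a slope of -0.21 ± 0.08 (SE), adjusted p = 0.031 (edgeR). In mt-Nd3 the levels were 244, 228 and 138 CPM in C12 and 147, 63.9 and 338 in ih_STC_BM, in the same order as the nuclear sums in ih_STC_BM.

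**Figure D4:**
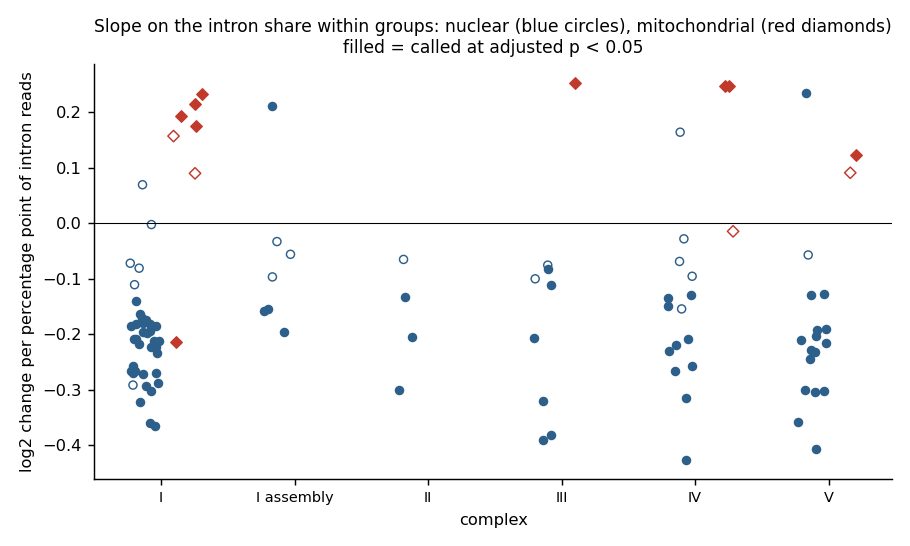
Slope of each tested member on the intron share within groups, in log2 change per percentage point, by complex; blue circles are nuclear, red diamonds mitochondrially encoded, and filled points were called at an adjusted p under 0.05. Blue points lie mostly below 0 (69 of 89 called negative) and red points mostly above it (8 of 13 called positive).

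Single libraries show the direction and where it did not hold. In C12, 86 of 89 nuclear members were higher in the library with the lowest intron share (C12 2, 1.02%) than in that with the highest (C12 3, 5.23%), and their sum was 2.73 times as high. The counts were 80 in ih_DCTC and 80 in ih_STC_BM (sums 1.60 and 2.60 times as high), 83 in MSC (1.17) and 81 in ih_BCTC (1.27). In MDSC, where the intron share spans 9.64% to 10.4%, 68 were higher (1.05), and in ih_CTC, at 6.1% to 7.32%, 6 of 89 were (0.90). Of the 13 mitochondrial members, 2 were higher in the low-intron library in C12, 2 in ih_CTC, 1 in ih_DCTC, 2 in ih_STC_BM and 3 in MSC, while 11 were in ih_BCTC and 12 in MDSC. Their sum in that library was 0.397 (ih_STC_BM) to 0.903 (ih_CTC) times as high in the first 5 of these groups, and 1.12 and 1.06 times in ih_BCTC and MDSC. Between 44.1% and 48.7% of all tested genes were higher in the low-intron library of each group. The slope rests on the libraries of low intron share: without the 5 line libraries under 3%, 0 members and 0 genes of the series were called, at median slopes of -0.07 (nuclear) and 0.10 (mitochondrial).

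Of the catalytic and core members, Atp5b, the catalytic beta subunit of complex V, was at 1802, 2892 and 889 CPM in C12, 2376, 788 and 3516 in ih_STC_BM and 730, 742 and 754 in MDSC. Uqcrc1, a core protein of complex III, was at 400, 727 and 129 CPM in C12 and 112, 117 and 123 in MDSC. Both followed the intron share (slopes -0.30 ± 0.04 and -0.32 ± 0.05, SE). Sdha, the flavoprotein of complex II, was flatter, at 234, 251 and 165 CPM in C12, 205, 200 and 249 in ih_STC_BM and 159, 172 and 169 in MDSC, with a slope of -0.07 ± 0.03 that was not called (adjusted p = 0.12, edgeR). Uqcrfs1, the Rieske iron-sulphur protein of complex III, was at 117, 140 and 75.2 CPM in C12 and 81.5, 83.6 and 88.5 in MDSC, and its slope of -0.08 ± 0.03 was not called (adjusted p = 0.082, edgeR).

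Isoforms of 1 subunit differed by group. Cox4i2, known as the lung isoform linked to low oxygen, was at 1.87, 1.43 and 1.41 CPM in C12, 1.77 and 2.55 in MSC and 2.24 and 4.44 in ih_DCTC 1 and 3. It had 0 counts in ih_DCTC 2 and in all 3 ih_STC_BM libraries, and 2 counts each over ih_CTC and over ih_BCTC. Cox4i2 was at least 18.1-fold lower in ih_STC_BM than in MSC (against a floor of 3 counts over the group; adjusted p = 0.0043, edgeR). The ratio of MSC to ih_CTC was 37.6 (95% counting interval 9.84 to 319.9) and that of MSC to ih_BCTC 39.4 (10.3 to 335.4). Per kilobase, Cox4i1 stood at 377.3 and Cox4i2 at 1.99 CPM per kb in C12, so the common isoform was the main one there as in the other groups.

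Cox6b2, known as the testis isoform, was at 8.94, 8.90 and 9.80 CPM in MDSC and 6.16, 10.2 and 3.53 in C12. It was at 0.0816 to 0.342 CPM in ih_CTC, 0.271 to 0.516 in ih_BCTC, 0.872, 0.527 and 3.36 in ih_DCTC, 0 to 2.33 in ih_STC_BM and 1.87 and 1.23 in MSC. Only MDSC had 1 of the 4 testis markers above 1 CPM in mean, and 0 of 4 had a count in C12. Cox6b2 was 42.6-fold lower in ih_CTC (adjusted p = 1.2e-04) and 5.76-fold lower in ih_DCTC than in MDSC (adjusted p = 0.01, edgeR, n = 3 each), and 5.92-fold higher in MDSC than in MSC. With the intron share as a covariate its log2 change against MDSC was -4.88 in ih_CTC (adjusted p = 0.00041) and -1.64 in ih_DCTC (0.2, edgeR). Between MDSC and MSC Cox6b2 was then at 1.32 and not called (adjusted p = 0.46, edgeR). It had the smallest adjusted p among the lines (0.0013, edgeR, n = 3 per line).

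Cox7a1, the isoform of heart and skeletal muscle, had 0 counts in the 3 MDSC libraries and 0.203 to 2.96 CPM in the 15 line libraries. It was at least 11.2-fold higher in C12, 7.015-fold in ih_CTC and 9.10-fold in ih_DCTC, and MSC (3.54 and 2.37 CPM) was at least 25.9-fold higher (floor of 3 counts over the MDSC group). With the intron share as a covariate the difference from MDSC stayed called in ih_CTC (adjusted p = 0.0073), ih_DCTC (0.026) and MSC (0.025, edgeR). In C12 it was not called (adjusted p = 0.068, edgeR). Cox6a2, another muscle isoform, was at 5.62 and 2.63 CPM in MSC, 5.43 in ih_STC_BM 3 and at most 2.82 elsewhere. Ndufa4l2, known to be induced in low oxygen, was at 6.77 and 4.65 CPM in MSC and at most 1.81 in every other library. It was lower than in MSC in C12 (6.41-fold), ih_CTC (26.5-fold), ih_STC_BM (16.7-fold) and ih_BCTC (13.95-fold), while ih_DCTC missed the threshold (adjusted p = 0.072, edgeR). Its partner Ndufa4, known as a complex IV subunit but placed here by symbol under complex I, was at 60.5 ± 6.35 CPM in MDSC. It was at 108 to 138 CPM in the means of the other groups.

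Atp5g1, Atp5g2 and Atp5g3 encode the same mature c subunit. Per kilobase, their order was Atp5g2, Atp5g3, Atp5g1 in 6 of the 7 groups, with 326.5, 177.5 and 31.8 CPM per kb in C12 and 70.1, 63.3 and 4.89 in MDSC. In ih_CTC Atp5g3 (161.3) was above Atp5g2 (112.0). The order of these genes depends on the merged exon lengths used, 1675 bases for Atp5g2 and 2181 for Atp5g3. In plain CPM Atp5g3 was above Atp5g2 also in MDSC (138 against 117), MSC (265 against 222) and ih_BCTC (346 against 282). Atp5g2 was above Atp5g3 in C12 (547 against 387) and ih_DCTC (377 against 360).

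**Figure D5:**
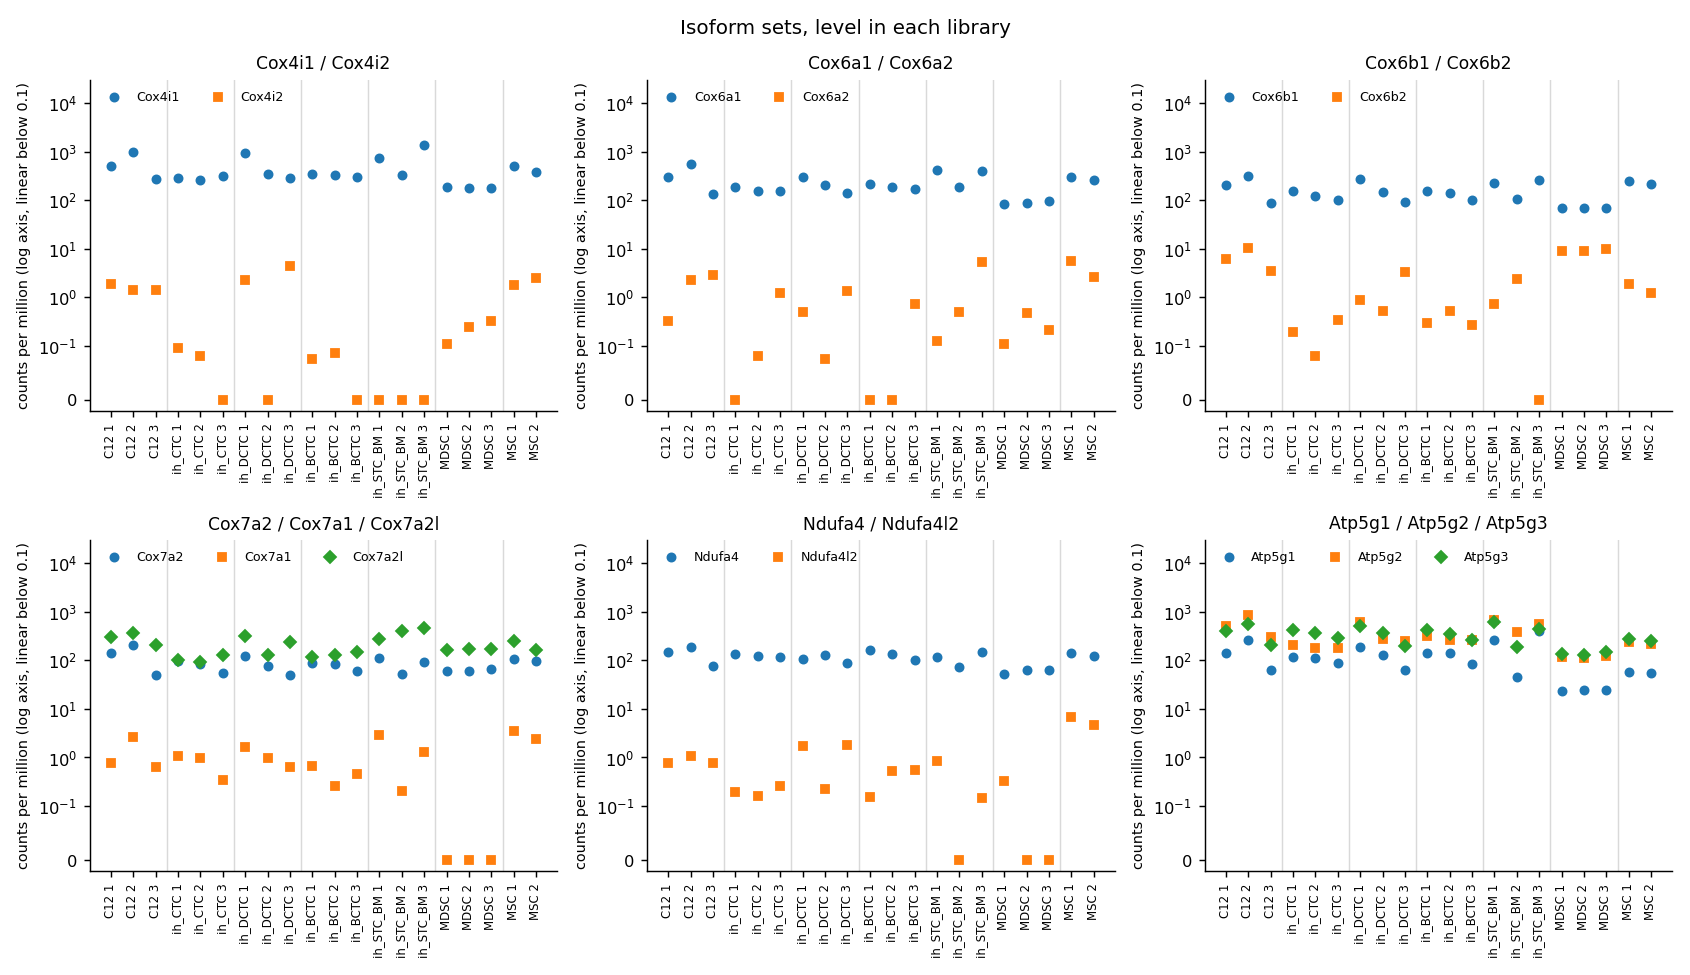
Level of 6 isoform sets in each of 20 libraries, in CPM on a log axis that is linear below 0.1; grey lines separate groups. Cox4i2 is at 0 in all 3 ih_STC_BM libraries and Cox7a1 in all 3 MDSC libraries, while Cox4i1, Cox6a1, Cox6b1, Cox7a2 and Ndufa4 stay above 40 CPM throughout.

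Of the mitochondrial members, mt-Atp8 was called against MSC in MDSC, C12 and ih_BCTC but not in ih_CTC, ih_DCTC or ih_STC_BM. It encodes a short subunit of complex V that anchors in the membrane. The levels were 110 and 140 CPM in MSC, 256, 254 and 260 in MDSC, 308, 191 and 246 in C12 and 323, 270 and 258 in ih_BCTC, with no overlap between MSC and these groups. Of all tested genes, 39.5%, 25.3% and 36.3% were likewise wholly above MSC in MDSC, C12 and ih_BCTC. The rise over MSC was 2.05-fold in MDSC, 1.98-fold in C12 and 2.27-fold in ih_BCTC, with adjusted p = 0.018, 0.031 and 0.011 (edgeR). With the intron share as a covariate the log2 change was 0.95 in C12 (adjusted p = 0.0053) and 0.77 in ih_BCTC (0.036, edgeR). In MDSC it was 0.11 and not called (adjusted p = 0.85, edgeR). The last 43 bases of mt-Atp8 (MT, 7927 to 7969, plus strand) are also the first of mt-Atp6, as read from the GENCODE M21 transcripts, and reads from them cannot be assigned to 1 gene, so the shared stretch is shown.
mt-Atp8 and mt-Atp6: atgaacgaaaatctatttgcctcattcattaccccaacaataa
It is 43 of the 204 bases of mt-Atp8, so its count depends on how those reads were divided. Whether mt-Atp8 or its overlap with mt-Atp6 carried the difference was not tested.

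The gene mt-Nd4l shares 7 bases with mt-Nd4, and was at 153, 189 and 183 CPM in ih_BCTC against 50.2 and 84.6 in MSC (2.60-fold, adjusted p = 0.047, edgeR). With the intron share as a covariate its log2 change was 0.66 and not called (adjusted p = 0.21, edgeR). The gene mt-Co3 was at 1661, 2641 and 4286 CPM in ih_STC_BM against 1517 and 1430 in MSC (1.94-fold, adjusted p = 0.041, edgeR). With the covariate its log2 change was 0.98 (adjusted p = 0.018, edgeR). The level of mt-Co1 ran from 3358 CPM in ih_STC_BM 3 to 17062 in ih_STC_BM 2, within 1 group, against 10490 to 11435 in MDSC. Of the others, mt-Cytb ran from 468 to 3498 CPM, mt-Nd1 from 311 to 2726 and mt-Nd5 from 439 to 1864 over the 20 libraries, and none of these was called against MDSC or MSC.

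Other genes of the pathway were counted over fixed lists. Their counts, levels and changes are given without the intron share as a covariate, and MDSC had the highest intron share. Whether they would keep their calls with it is not given here. Of all genes tested against MDSC, C12 had 31.3% higher (30.5% lower), ih_CTC 28.2% (27.1%) and ih_DCTC 31.2% (28.1%), while 23.6% of slopes were positive and 19.4% negative. Of 77 mitochondrial ribosomal protein genes, which translate the 13 mitochondrial mRNAs, 51 were higher and 1 lower in C12 than in MDSC, 42 and 1 in ih_CTC and 49 and 1 in ih_DCTC, and 59 had a negative and 2 a positive slope on the intron share. Mrps6, of the small ribosomal subunit, was at 5.33 ± 0.472 CPM in MDSC and 92.01 ± 31.5, 51.9 ± 6.63 and 49.3 ± 17.2 in C12, ih_CTC and ih_DCTC (SD, n = 3 each). Of 19 protein import genes 15, 13 and 14 were higher and 0 lower in the 3 lines, and 14 had a negative slope. Tomm40, the outer membrane channel, rose 2.13, 2.06 and 2.02 on the log2 scale.

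Of 18 genes of mitochondrial transcription and its regulators, C12 had 3 higher and 7 lower, ih_CTC 5 and 6, and ih_DCTC 3 and 4, while 7 had a positive and 3 a negative slope. Tefm, the elongation factor of mitochondrial RNA polymerase, was at 1.51 ± 0.360 CPM in MDSC and 11.7 ± 2.22 in C12 (log2 change 2.94 ± 0.36, SE). In the tricarboxylic acid cycle, of 17 genes, C12 had 9 higher and 1 lower, ih_CTC 7 and 0, and ih_DCTC 8 and 0, while 8 had a negative and 2 a positive slope. Dlat, the acetyltransferase of pyruvate dehydrogenase, rose 2.02 in ih_CTC and 1.88 in ih_DCTC on the log2 scale. Uqcc2, an assembly factor of complex III, had the largest rise of its list in each line (4.21, 2.78 and 3.35 on the log2 scale), and a slope of -0.39 ± 0.04 (SE).

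Of 8 adenine nucleotide, phosphate and uncoupling carriers, 3 were higher and 2 lower than in MDSC in each of the 3 lines and 3 were not called, shares near the background. On the intron share 7 of the 8 had a negative and 0 a positive slope. Slc25a4, which exchanges ADP and ATP across the inner membrane, was at 56.9 ± 3.23 CPM in MDSC and 463 ± 117 in C12, 429 ± 92.1 in ih_CTC and 370 ± 106 in ih_DCTC (SD, n = 3 each). Ucp2, an uncoupling protein of the same carrier family, was at 571 ± 13.8 CPM in MDSC and 1122 ± 423 in MSC (n = 2), and at 5.17 ± 0.771 in ih_CTC, 63.1 ± 23.0 in ih_DCTC and 101 ± 57.0 in C12. It was lower in all 5 lines than in MSC, with log2 changes from -3.48 (C12) to -7.76 (ih_CTC). Atpif1, the inhibitor of complex V, was lower than in MSC in C12, ih_CTC, ih_DCTC and ih_BCTC (-1.26, -2.10, -1.24 and -1.64 on the log2 scale).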

How the data were processed

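The deposited table gave expected counts per gene for 20 libraries, with 6.94% of values not whole (tolerance 0.001). Tools named in the submitters' processing notes are RSEM 1.2.26, STAR and DESeq2, with no role stated. The sources used here name no genome build. The authors' alignment table gave the percent of reads in introns, of mapped reads and of mitochondrial reads. Labels give no batch, date or replicate number, so libraries are numbered in their listed order.

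Counts were rounded, scaled with TMM and filtered (filterByExpr, minimum count 10, minimum total 15) in edgeR 4.0.16 under R 4.3.3. A quasi-likelihood model of 7 group means with robust dispersion was fitted to all 20 libraries (13 residual degrees of freedom), two-sided, with Benjamini-Hochberg adjustment at 0.05 within each comparison. The SE is the log2 change divided by the root of F. CPM are TMM-scaled. Folds against 0 counts use a floor of 3 counts over the group, and intervals (95%) cover counting error only.

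Members and lists were chosen with earlier results of these data known. Named were isoform sets, the mitochondrial members, core subunits, and per comparison and complex the largest called rise and fall at 20 CPM or more; list genes needed 5 CPM. Alternatives were scaling by RLE or upper quartile, DESeq2 1.42.0, testing without the filter, a covariate of intron share, omission of 5 line libraries under 3% introns (C12 1, C12 2, ih_DCTC 1, ih_STC_BM 1 and ih_STC_BM 3), and leaving out each library. Of 105 members, 72 had the same position in GENCODE M21. The test was also run on simulated counts, with a common mean per gene apart from the genes that were changed. That setting holds no libraries that depart from their group, and its outcome is not given here. Python 3.11.15, pandas 2.3.3 and matplotlib 3.10.9 made tables and figures.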

Additional observations from a re-analysis of the deposited data

How the results depend on the processing

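The number of members called was within 1.5 times its value under RLE and upper quartile scaling in every comparison. Without the filter it moved in ih_STC_BM against MSC (7). DESeq2 gave 10 in ih_CTC, 7 in ih_DCTC and 17 in ih_BCTC against MSC and 37 among the 5 lines. With the intron share as a covariate, C12, ih_DCTC and MDSC gave 22 and 28 (against MDSC) and 25 (MDSC against MSC); against MSC, C12 gave 23, ih_CTC 32, ih_DCTC 21, ih_STC_BM 44 and ih_BCTC 23; among the lines 31 differed. Without the 5 low-intron line libraries the counts were 42 in C12 and 71 in ih_CTC against MDSC, 80 in MDSC against MSC, 45 (C12), 44 (ih_CTC), 48 (ih_DCTC), 43 (ih_STC_BM) and 52 (ih_BCTC) against MSC, 27 among the lines and 0 for the slope. Shares of all genes are not given here for the other scalings, for DESeq2 or without the filter. Nor are they for the test among the lines with the covariate or without the low-intron libraries. Those counts therefore stand without a background. The cause was not tested.

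Leaving out 1 library gave 48 to 72 called members in C12, 25 to 39 in ih_CTC and 28 to 58 in ih_DCTC against MDSC, the lowest in ih_DCTC without ih_DCTC 1. The range was 19 to 57 in MDSC against MSC. Against MSC it was 1 to 14 in C12, 4 to 13 in ih_CTC, 1 to 10 in ih_DCTC, 2 to 23 in ih_STC_BM and 4 to 17 in ih_BCTC, the highest without ih_STC_BM 2 in all but C12 (C12 3, and 14 without ih_STC_BM 2 as well). It was 0 to 3 between ih_DCTC and ih_BCTC, 9 (without ih_CTC 2) to 47 (without ih_STC_BM 2) among the lines and 66 to 83 for the slope.

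Some named members changed sign with the covariate: Uqcr11 (-0.57) and Atp5g1 (-0.45) in C12, Uqcr11 (-0.39) and Cox4i1 (-0.42) in ih_DCTC against MDSC, and Uqcr11 (0.79), Cox6b1 (0.20) and Atp5k (0.72) in MDSC against MSC. Without the low-intron libraries Atp5g1 in ih_STC_BM against MSC was at -0.33. No paired analysis was possible because the labels give no replicate numbers. With 2 or 3 libraries per group, small differences could not be called.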
